A study of Mus musculus with 2 samples.

Results

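The cells described here are the barcodes of 2 single-cell RNA libraries of immature γδ T cells in which the 3 near-identical Vγ1-family segments Trgv2, Tcrg-V1 and Tcrg-V3 together outnumbered every other γ variable segment. The members were chosen by their γ V counts, which are measured values: a barcode entered when it held at least 1 UMI (a counted transcript molecule) of Tcrg-V1, Tcrg-V3, Tcrg-V4, Tcrg-V5, Tcrg-V6, Tcrg-V7 or Trgv2, and it was family-led when the summed UMIs of the 3 family segments exceeded those of each of the remaining segments. This held for 421 of 1202 TMREhi barcodes and 79 of 196 TMRElo barcodes, 500 of 1398 in all. Both libraries came from wild-type C57BL/6 fetal thymus: lobes of embryonic day 15, cultured for 2 days with no treatment, stained with TMRE, a dye that mitochondria take up according to their membrane potential, and sorted as CD24-positive γδ T cells of bright (TMREhi) or dim (TMRElo) stain. Each fraction is 1 library, so no test between them was possible, no p-value is given, and every interval (95%, exact) covers counting error only. How many lobes or embryos entered each library is not given in the labels, and the lobes are organ cultures, not fresh tissue.

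A γδ T cell joins 1 of a handful of γ variable segments to a J and a C segment, and in the mouse fetal thymus the segments are used in waves, with Vγ5 and Vγ6 cells made first and Vγ1 and Vγ4 cells later. Vγ1 cells are known mainly as producers of interferon-γ, with a subset that pairs with Vδ6, carries the transcription factor PLZF (gene Zbtb16) and behaves like NKT cells, whereas Vγ6 cells and part of the Vγ4 cells are programmed for interleukin-17. By textbook arrangement Tcrg-V1 joins the C4 cluster, Trgv2 the C2 cluster, and Tcrg-V4 to Tcrg-V7 the C1 cluster.

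The 3 segments were grouped because their sequences hardly differ, which bears on every count per segment given here. All 3 are annotated as receptor variable genes with 2 coding exons on mouse chromosome 13 (GENCODE vM21, GRCm38). The second coding exon, without its first 7 bases, which are shared, is shown for each, 5′ to 3′ on the gene's own strand. The stretch lies at chr13:19336573-19336872 on the minus strand for Trgv2, at chr13:19340158-19340454 on the plus strand for Tcrg-V1 and at chr13:19243002-19243301 on the plus strand for Tcrg-V3. Capitals in Trgv2 mark bases at which Tcrg-V1 or Tcrg-V3 differs, and capitals in the other pair mark bases that differ from Trgv2.
Trgv2: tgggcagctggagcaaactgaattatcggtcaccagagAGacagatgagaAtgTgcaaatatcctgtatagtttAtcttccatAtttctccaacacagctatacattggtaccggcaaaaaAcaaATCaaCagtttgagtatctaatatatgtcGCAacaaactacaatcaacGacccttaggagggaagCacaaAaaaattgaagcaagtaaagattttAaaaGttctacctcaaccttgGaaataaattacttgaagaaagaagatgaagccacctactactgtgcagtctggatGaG
Tcrg-V1: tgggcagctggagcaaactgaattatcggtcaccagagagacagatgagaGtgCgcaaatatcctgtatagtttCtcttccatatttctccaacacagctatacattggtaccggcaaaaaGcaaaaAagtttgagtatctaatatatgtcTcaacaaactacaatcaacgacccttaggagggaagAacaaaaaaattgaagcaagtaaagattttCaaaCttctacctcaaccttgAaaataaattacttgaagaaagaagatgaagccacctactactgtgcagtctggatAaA
Tcrg-V3: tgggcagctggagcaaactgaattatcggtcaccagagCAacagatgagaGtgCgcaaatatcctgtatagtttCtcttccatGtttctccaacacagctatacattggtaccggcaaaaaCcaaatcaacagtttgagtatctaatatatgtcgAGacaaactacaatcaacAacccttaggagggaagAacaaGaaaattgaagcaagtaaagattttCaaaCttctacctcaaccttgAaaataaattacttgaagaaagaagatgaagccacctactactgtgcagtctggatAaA
Tcrg-V1 had 12 mismatches and lacked 3 bases relative to Trgv2 in this stretch, and Tcrg-V3 had 17 mismatches. Over the whole coding sequence the family members were 93.8% to 94.9% identical to each other, with shared runs of up to 104 bases between Tcrg-V1 and Tcrg-V3. Their identity to Tcrg-V4 was 55.6% to 58.5%, and to Tcrg-V6 44.0% to 46.2%, with no shared run over 13 bases to any segment outside the family. Reads of 1 family member can therefore be counted for another, and counts of single family segments are uncertain. The constant genes are alike in part: Tcrg-C1 and Tcrg-C3 were 96.7% identical, Tcrg-C1 and Tcrg-C2 94.6%, and Tcrg-C4 67.5% to 69.6% identical to the others.

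The family led in 421 of the 727 TMREhi barcodes with a γ V UMI (57.9%, 54.2 to 61.5) and in 79 of the 123 such TMRElo barcodes (64.2%, 55.1 to 72.7). Because the rule used these counts, the shares and the segment counts are a description. Trgv2 was the highest of the 3 in 335 TMREhi and 62 TMRElo members, Tcrg-V1 in 50 TMREhi and 12 TMRElo members, and Tcrg-V3 in 6 TMREhi members and no TMRElo member. The rest, 30 in TMREhi and 5 in TMRElo, were tied within the family. Of the 4114 γ V UMIs in TMREhi members, Trgv2 took 2539 (61.7%), Tcrg-V1 720 (17.5%), Tcrg-V3 95 (2.31%) and Tcrg-V4 556 (13.5%). A Tcrg-V4 UMI was also present in 41.1% of TMREhi members and 19.0% of TMRElo members. Both Trgv2 and Tcrg-V1 were counted in 180 TMREhi and 16 TMRElo members, a count that is uncertain because these segments are nearly identical. No segment outside the family was seen in 47.7% of TMREhi and 67.1% of TMRElo members, which also held fewer UMIs.

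The lead rested on few molecules. Family UMIs had a median of 4 in TMREhi members (maximum 55) and 2 in TMRElo members (maximum 25). Exactly 1 family UMI placed 71 TMREhi and 27 TMRElo barcodes among the members. Just inside the rule stood 117 TMREhi and 35 TMRElo members that led by exactly 1 UMI, with median totals of 1879 and 961 UMIs. Just outside it stood 79 TMREhi and 15 TMRElo barcodes tied with another segment, with median totals of 1790 and 1276 UMIs, and of these ties 46 in TMREhi and 11 in TMRElo were with Tcrg-V4.

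Members fell into 2 classes by the share of their UMIs from ribosomal protein genes, and gene levels were compared between groups inside a class, while receptor segment shares were given over both classes together unless a class is named. Barcodes below 15%, called low-ribosomal here, numbered 223 TMREhi and 69 TMRElo members, and those from 15%, called high-ribosomal, 198 TMREhi and 10 TMRElo members. Low-ribosomal members were 53.0% of the TMREhi and 87.3% of the TMRElo members. They were shallow, with a median of 1896 UMIs in TMREhi and 999 in TMRElo, and mitochondrial transcripts took 19.0% of their summed UMIs in TMREhi and 14.4% in TMRElo. More than 10% mitochondrial UMIs were held by 220 of the 223 TMREhi and 58 of the 69 TMRElo members. Only 3 and 9 of them had at least 500 genes and at most 10% mitochondrial UMIs. High-ribosomal members had a median of 10218.5 UMIs in TMREhi and 5969 in TMRElo, with mitochondrial transcripts at 3.63% and 3.83%. The family led in 72.3% of high-ribosomal but 49.2% of low-ribosomal TMREhi barcodes with a γ V UMI, and in 10 of 14 high-ribosomal and 63.3% of low-ribosomal TMRElo barcodes. The 10 high-ribosomal TMRElo members held 61582 UMIs, of which 1 barcode gave 19.0% and 5 gave 75.1%. The scatter of ribosomal share against depth shows both classes in each library.

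**Figure D1:**
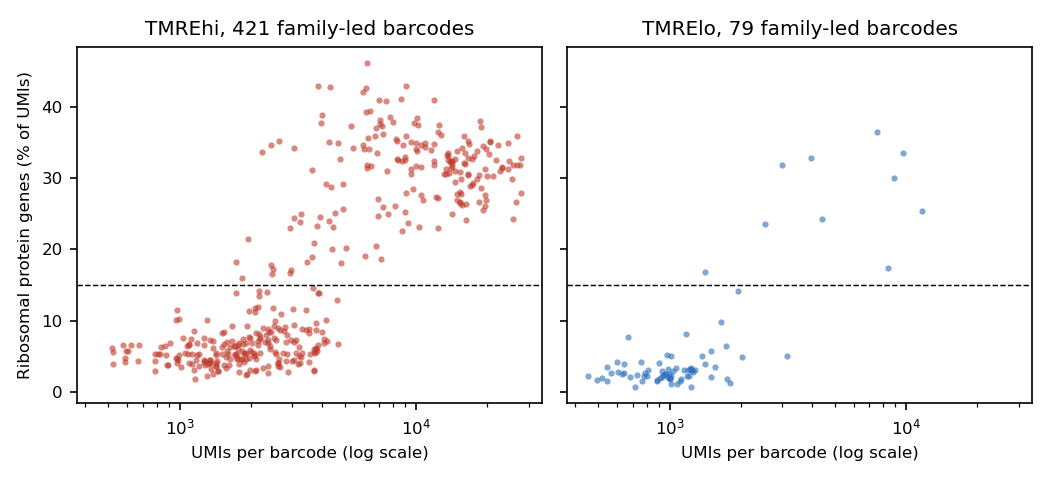
Share of UMIs from ribosomal protein genes (in percent) against UMIs per barcode (log axis) for each family-led barcode, TMREhi left and TMRElo right, with the limit of 15% as a dashed line. The 223 TMREhi and 69 TMRElo members below the line are shallow, with medians of 1896 and 999 UMIs, and those above it, 198 and 10, are deeper, with medians of 10218.5 and 5969.

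Gzma and Zbtb16 are given as markers of these barcodes besides the V segments, and the sort selected CD24-positive γδ T cells. Receptor transcripts were widely found: among TMREhi members Cd3d, a chain of the receptor complex, was found in 151 of 223 low-ribosomal and 196 of 198 high-ribosomal barcodes, and Trdc, the δ constant gene, in 118 and 163 of them. TMRElo members held Cd3d in 23 of 69 low-ribosomal and 10 of 10 high-ribosomal barcodes and Trdc in 29 and 8. Cd24a was found in 28 of 223 and 110 of 198 TMREhi members of the low and high class, but in 2 of 69 and 0 of 10 TMRElo members. The summed Gzma level was not higher in members in both classes, it was also high in Tcrg-V4-led barcodes, and the Zbtb16 ratios to all other γ V barcodes had intervals that include 1, so the barcodes are called family-led here and not by an effector type. Markers of αβ thymocytes (2 or more UMIs of Rag1, Rag2, Cd4, Cd8a, Cd8b1 and Ptcra together) were present in 20 of 223 and 26 of 198 TMREhi members of the low and high class, and in 6 of 69 and 1 of 10 TMRElo members. The libraries shared 0 cell barcodes.

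The δ chain, which the rule did not use, was mixed in family-led barcodes and nearly uniform in Tcrg-V6-led ones. Of 292 TMREhi members with a δ V UMI, Trdv2-2 led in 35.3%, the Trav15-dv6 segments (Vδ6) in 24%, Trdv5 in 14.4% and Trdv4 (Vδ1) in 11.0%, with 12 tied. Barcodes led by Tcrg-V4 also held several δ segments: of 54, Trdv2-2 led in 42.6%, Trdv5 in 22.2%, Trav15-dv6 in 13.0% (5.37 to 24.9) and Trdv4 in 7.41%. Barcodes led by Tcrg-V6 did not: of 93, Trdv4 led in 94.6% (87.9 to 98.2) and Trdv2-2 in 3.23%. The Trdv4 interval in members was 7.62 to 15.1, far below that of the Tcrg-V6-led barcodes. Trav15-dv6 led in 16.9% of the low-ribosomal and 28.7% of the high-ribosomal TMREhi members, with intervals of 10.7 to 25.0 and 22.1 to 36.1. In the TMRElo library 30 members had a δ V UMI, and Trav15-dv6 led in 33.3%, Trdv2-2 in 23.3%, Trdv5 in 23.3% and Trdv4 in 0, with 5 tied. All 10 led by Trav15-dv6 were low-ribosomal, of 22 such barcodes. Low-ribosomal members held 103 Trdv4 UMIs in TMREhi and 0 in TMRElo, a level at least 5.56-fold higher in TMREhi against a floor of 3 counts in the TMRElo set. High-ribosomal TMRElo members held 2 Trdv4 UMIs, in 2 of 10 barcodes.

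**Figure D2:**
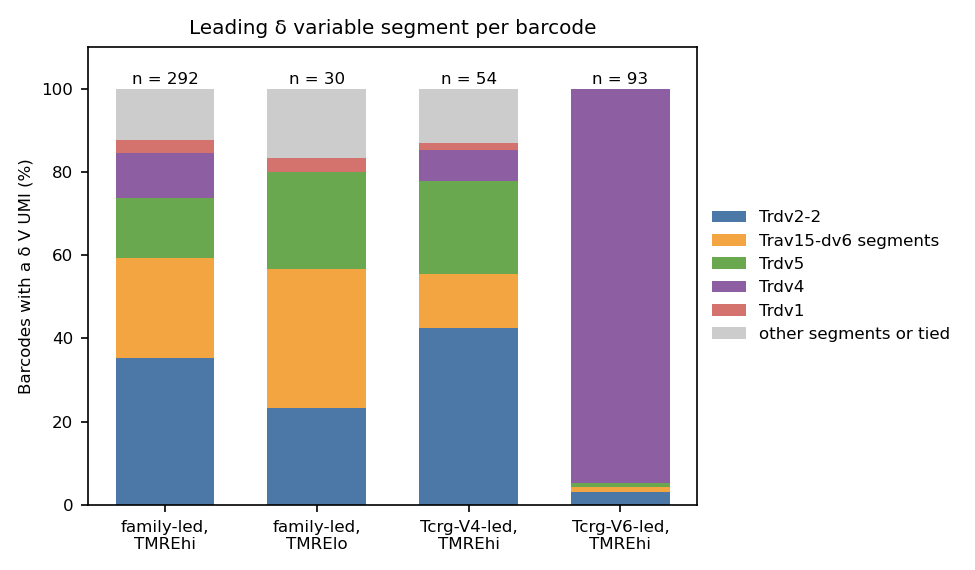
Stacked shares of barcodes by their leading δ V segment, in percent of barcodes with a δ V UMI, for family-led barcodes of TMREhi (n = 292) and TMRElo (n = 30) and for the Tcrg-V4-led (n = 54) and Tcrg-V6-led (n = 93) barcodes of TMREhi, with further segments and ties in grey. Trdv4 fills 94.6% of the Tcrg-V6-led bar, 11.0% of the TMREhi family-led bar and none of the TMRElo family-led bar.

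The γ constant genes were mixed in members as well. In TMREhi members 44.9% of 2818 constant-gene UMIs fell on Tcrg-C1, 31.8% on Tcrg-C2, 0.674% on Tcrg-C3 and 22.7% on Tcrg-C4, and in TMRElo members 35.0%, 36.4%, 2.10% and 26.6% of 143. Tcrg-V4-led barcodes of TMREhi were close to the members, with 45.5% of 231 on Tcrg-C1, 33.3% on Tcrg-C2 and 20.8% on Tcrg-C4. Tcrg-V6-led barcodes had 79.6% on Tcrg-C1, 7.84% on Tcrg-C2 and 12.6% on Tcrg-C4. Within TMREhi members the Tcrg-C4 share was 39.2% (33.5 to 45.0) where Tcrg-V1 was the highest family segment and 20.1% (18.5 to 21.7) where Trgv2 was. The same shares in TMRElo members were 52% (31.3 to 72.2, of 25 UMIs) and 21.1% (14.0 to 29.7, of 114 UMIs). Since Tcrg-C1, Tcrg-C2 and Tcrg-C3 are nearly identical, only the Tcrg-C4 share is free of that uncertainty. UMIs of 1 barcode are not independent, so these intervals are narrower than the spread between barcodes.

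The family-led barcodes were next set against all other barcodes with a γ V UMI in the TMREhi library, to see which genes accompany a lead of Vγ1-family transcripts. Whether the leading segment is the receptor chain that a cell carries was not tested. For each gene, UMIs were summed over the barcodes of a set and given as CPM (the gene's UMIs scaled to a common total per set), and a gene was compared when at least 10 UMIs were expected in the shallower set. In the low-ribosomal class, 223 members faced 230 other barcodes, and 6385 genes were compared. More than 2-fold differences were found for 395 of them (6.19%): 170 were higher in members (2.66%) and 225 lower (3.52%). The γ V segments that the rule used were not left out of these counts, nor of any later count of members over others. In the high-ribosomal class, 198 members faced 76 others, and of 5418 genes 452 passed 2-fold (8.34%), 195 higher (3.6%) and 257 lower (4.74%). The others were a mixture: 67 low- and 9 high-ribosomal barcodes led by Tcrg-V4, 61 and 40 led by Tcrg-V6, 31 and 8 by Tcrg-V5, 5 and 3 by Tcrg-V7, and the remainder tied.

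Genes of the interleukin-17 programme lay mostly on the low side in members. Of 31 listed genes 26 were compared in each class. In low-ribosomal members 7 were higher and 19 lower, 10 of these by more than 2-fold. The median log2 ratio of the list was −0.79, against 0.002 over all genes compared. In high-ribosomal members 6 were higher and 20 lower, 17 of them by more than 2-fold, with a median of −1.70 against 0.05. Il23r, the receptor that sustains interleukin-17 cells, stood at 48.5 CPM in low-ribosomal members and 272 CPM in the others (ratio 0.178, 0.107 to 0.285), and at 4.79 and 61.7 CPM in the high-ribosomal sets (0.0777, 0.0353 to 0.158). Maf, a transcription factor of the programme, had 90.6 CPM in high-ribosomal members and 302 CPM in the others (0.300, 0.242 to 0.371). Cd163l1, which encodes the scavenger receptor SCART1 of interleukin-17 γδ cells, had 118 CPM in members and 705 CPM in the others (0.167, 0.143 to 0.196), and Il7r, the interleukin-7 receptor, 124 and 470.1 CPM (0.263, 0.221 to 0.314). The cytokines themselves were almost absent from members: Il17a had 7 UMIs in 3 of 223 low-ribosomal and 4 UMIs in 2 of 198 high-ribosomal TMREhi barcodes.

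The size of this difference depended on the segment of the barcodes set against the members. Against Tcrg-V6-led barcodes alone, 13 of 20 interleukin-17 genes were lower by more than 2-fold in low-ribosomal members (median log2 −1.87), and 16 of 19 in high-ribosomal members (median −3.30), where 13.2% and 22.5% of all 1724 and 2734 genes compared passed 2-fold in either direction, and 7.54% and 9.8% were lower. Against the Tcrg-V4-led barcodes of the low-ribosomal class, where 4.04% of 2503 genes passed 2-fold and 2.04% were lower, 6 of 14 were higher and 8 lower, with none lower by more than 2-fold and a median of −0.22. Maf had 249 CPM in members and 327 CPM in Tcrg-V4-led barcodes (0.763, 0.528 to 1.12), and Il7r 551 and 514 CPM (1.07, 0.810 to 1.44), both with intervals that include 1. Sox13, a factor tied to Vγ4 interleukin-17 cells, was lower in members at 137 CPM against 237 CPM (0.577, 0.366 to 0.931). The ratio of 5830411N06Rik, which encodes the related scavenger receptor SCART2, was 0.632 (0.527 to 0.760) against Tcrg-V4-led barcodes and 6.04 (3.49 to 11.4) against Tcrg-V6-led ones. With the Tcrg-V6-led barcodes left out of the others, the median of the interleukin-17 list was −0.47 in the low and −0.29 in the high class. Genes past 2-fold then numbered 261 of 5447 (4.79%) and 128 of 3773 (3.39%).

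**Figure D3:**
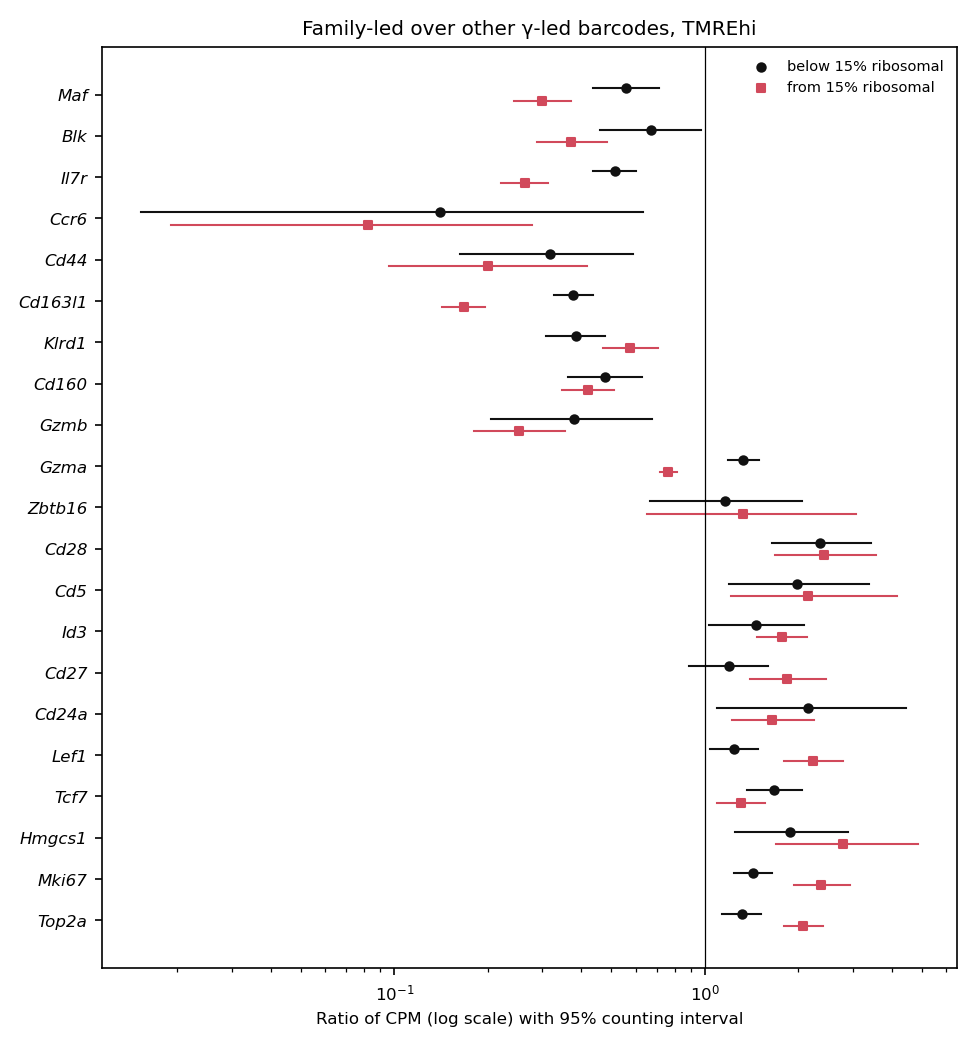
Ratio of CPM in family-led barcodes over other γ V barcodes of the TMREhi library for named genes, on a log axis with exact 95% intervals for counting error, in the low-ribosomal and high-ribosomal classes. Maf, Cd163l1 and Il7r lie left of 1 in both classes and Cd28, Id3 and Lef1 to its right, while Gzma lies on either side, at 1.33 and 0.762.

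Gzma, the granzyme named as a marker of this group, showed no single direction. In low-ribosomal members it had 765 UMIs in 105 of 223 barcodes (1687 CPM), and in the others 485 UMIs in 69 of 230 (1268 CPM), a ratio of 1.33 (1.19 to 1.49). In high-ribosomal members it had 4090 UMIs in 124 of 198 barcodes (1782 CPM), and in the others 1213 UMIs in 24 of 76 (2337 CPM), a ratio of 0.762 (0.715 to 0.813). The second ratio turned to 1.18 when each barcode was weighted equally and to 1.17 with Trgv2 alone as the family. The transcript was concentrated in few barcodes: the 10% richest in it held 69.8% of Gzma UMIs in members and 79.2% in the others of the low class, and 46.3% in members and 81.9% in the others of the high class, where 1 other barcode held 261 of the 1213 UMIs. After each barcode was thinned to 1000 UMIs, Gzma was seen in 36.8% (71 of 193) of low- and 44.4% (88 of 198) of high-ribosomal TMREhi members, against 27.2% (52 of 191) and 21.6% (16 of 74) of the others, and the unthinned shares were 47.1% and 62.6% against 30.0% and 31.6%. Barcodes with a Rag1 UMI and no γ V UMI gave 17.6% (15 of 85, 10.2 to 27.4) in the low class after thinning, with a median of 778 UMIs before it. Whether those barcodes express the gene was not tested. The others divided sharply for Gzma, with 1687 CPM in low-ribosomal members, 2033 CPM in Tcrg-V4-led barcodes (0.830, 0.718 to 0.961) and 89.9 CPM in Tcrg-V6-led ones (18.8, 9.48 to 43.6). In the high class members had 1782 CPM and Tcrg-V6-led barcodes 3 UMIs in 40 barcodes, 14.5 CPM (123, 42.1 to 597). Gzma was thus abundant in family-led and Tcrg-V4-led barcodes and scarce in Tcrg-V6-led ones.

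Zbtb16 was thinly detected, in 27 of 223 low- and 37 of 198 high-ribosomal members against 20 of 230 and 7 of 76 others, with ratios of 1.16 (0.665 to 2.05) and 1.33 (0.651 to 3.07) that do not differ from 1 beyond counting error. Of 19 genes of the NKT-like γδ programme, 14 were compared in the low class, 5 higher and 9 lower, and 13 in the high class, 5 higher and 8 lower. The interferon-γ and cytotoxic list leaned to the low side in both classes: 3 higher and 16 lower of 19 (median −0.87), and 3 higher and 11 lower of 14 (median −0.77). Klrd1, a natural killer receptor chain, had 280 CPM in low-ribosomal members and 729 CPM in the others (0.384, 0.309 to 0.475). Tyrobp, the adaptor of such receptors and also 1 of the NK cell markers, had 70.6 CPM in high-ribosomal members and 366 CPM in the others (0.193, 0.155 to 0.239). Ifng had 0 UMIs in all TMREhi members. Markers of NK cells or innate lymphoid cells moved with this list: their summed level was 520.4 CPM in low-ribosomal members and 920.3 CPM in the others, and 332.4 and 818.8 CPM in the high class, with 6 and 5 of the 14 genes at 0 in members, and their part in the result was not tested. Xcl1, a chemokine of such cells, was not higher in low-ribosomal members, with 258 CPM against 303 CPM in the others. Its UMIs lay in few barcodes, 117 in 22 of 223 members and 116 in 33 of 230 others. Against Tcrg-V4-led barcodes alone, at 16.3 CPM, the ratio of members was 15.8 (4.28 to 132). That level is below 3 counts in the Tcrg-V4-led set (24.5 CPM), so the size of the ratio is uncertain.

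Genes of immature thymocytes were more often higher in members than lower. The immature list had 15 higher and 6 lower of 21 genes in the low class (median 0.31) and 13 higher and 4 lower of 17 in the high class (median 0.38). From the list of genes induced by receptor signals, Id3 had 203 CPM in low-ribosomal members and 139 CPM in the others (1.46, 1.03 to 2.09), and 457 and 258 CPM in the high class (1.77, 1.48 to 2.13). Cd24a, the maturation marker used in the sort, had 165 CPM in high-ribosomal members and 100.2 CPM in the others (1.64, 1.23 to 2.24). Cd28, a costimulatory receptor of the same list, was at 265 CPM in low-ribosomal members and 112 CPM in the others (2.35, 1.65 to 3.42), and at 153 and 63.6 CPM in the high-ribosomal members and others (2.41, 1.69 to 3.56). Lef1, a factor of early T cells, was at 394 CPM in high-ribosomal members and 177 CPM in the others (2.22, 1.79 to 2.79). Outside the lists Nrgn, a calmodulin-binding protein, had the largest ratio among the genes that the naming rule covers in this class, with 532 UMIs in 65 of 198 members and 9 UMIs in 4 of 76 others (13.4, 6.99 to 29.4), and Izumo1r, the folate receptor homologue also called FR4, a ratio of 5.40 (2.79 to 12.0). In Tcrg-V6-led barcodes Cd24a had 0 UMIs over 40 high-ribosomal barcodes (at least 11.4-fold higher in members, against 3 counts in that set) and Cd28 a single UMI. With the Tcrg-V6-led barcodes left out of the others, the Cd24a ratio of the high class was 0.988. Markers of αβ thymocytes lay on the same side, with summed levels of 2483 CPM in members and 2131 CPM in the others in the low class and 2464 and 2169 CPM in the high class, all 12 detected in each set, and their part in this difference was not tested. Genes of maturation and thymic exit leaned the other way, with 10 higher and 20 lower of 30 in the low class (median −0.32) and 10 higher and 19 lower of 29 in the high class (median −0.39). H2-K1, a class I histocompatibility gene, had 242 CPM in high-ribosomal members and 661 CPM in the others (0.367, 0.320 to 0.421).

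Cholesterol synthesis was higher across the list. All 15 genes compared in the low class were higher in members (median 0.70) and all 14 in the high class (median 0.69), though only 1 and 5 passed 2-fold. Fdps, which makes farnesyl diphosphate, had 123 CPM in high-ribosomal members and 40.5 CPM in the others (3.05, 1.96 to 5.0), and Hmgcs1, a synthase early in the pathway, 91.0 and 32.8 CPM (2.78, 1.69 to 4.86). Against Tcrg-V4-led barcodes of the low class 5 of 7 such genes were higher, with a median of 0.53.

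Cell cycle genes were higher in members as well. In high-ribosomal members 46 of 48 genes of G2 and M phase were higher (12 past 2-fold, median 0.73) and 37 of 38 genes of S phase (median 0.46), and in the low class 38 of 51 and 31 of 41, with medians of 0.29 and 0.33. Mki67, a marker of cycling cells, had 471 CPM in high-ribosomal members and 198 CPM in the others (2.37, 1.94 to 2.93), and 67.6 CPM in Tcrg-V6-led barcodes (6.97, 4.13 to 12.8). Without the Tcrg-V6-led barcodes the medians of the high class were 0.19 for G2 and M phase and 0.12 for S phase, and against Tcrg-V4-led barcodes of the low class Mki67 had a ratio of 1.08 (0.891 to 1.32). Nuclear genes of the respiratory chain were slightly higher, with 51 of 77 in the low class (median 0.18) and 54 of 77 in the high class (median 0.12). Median UMIs of members also exceeded those of the others, 1896 against 1470.5 in the low class and 10218.5 against 5451 in the high class.

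The largest ratios of the low class belonged to macrophage genes, held mostly by 1 barcode. Lyz2 had 46 UMIs in 3 members and 0 in the others, C1qb 37 in 2 members and 0, and Apoe 88 in 7 members and 4 in the others. Of the 138 UMIs of the 12 myeloid markers in these members, 1 barcode held 118, and 4 of the 12 markers were at 0, while the others held 13 UMIs in all with 10 markers at 0. Leaving out barcodes with 2 or more such UMIs gave 389 of 6368 genes past 2-fold (6.11%) and a Gzma ratio of 1.57.

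**Figure D4:**
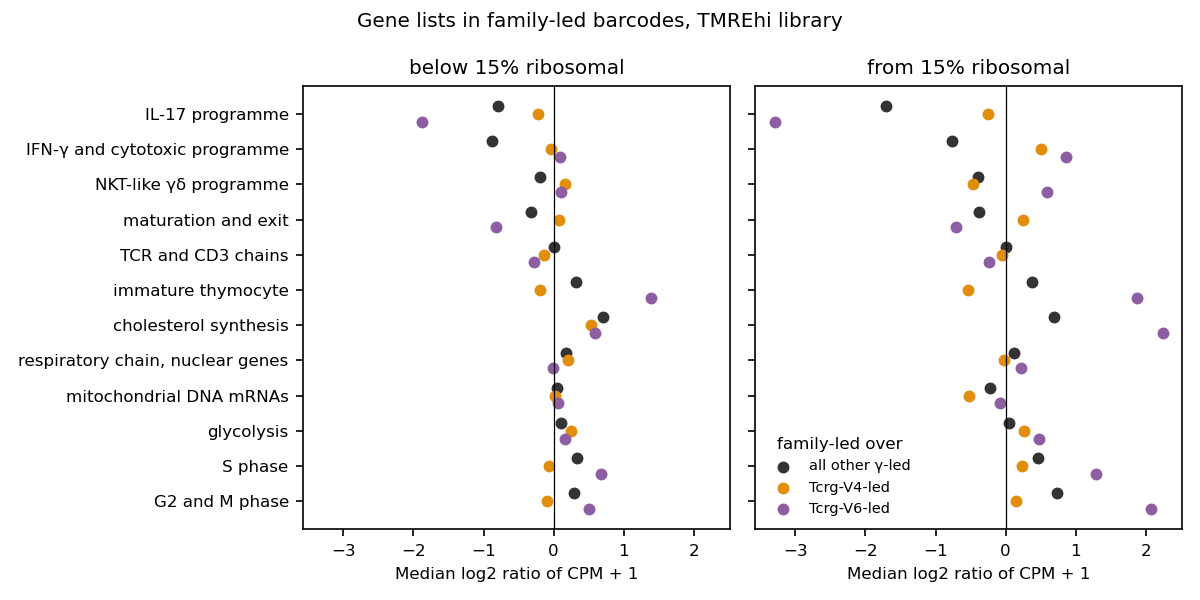
Median log2 ratio of CPM + 1 over the compared genes of each list, for family-led barcodes of TMREhi over all other γ V barcodes (black), over Tcrg-V4-led ones (orange) and over Tcrg-V6-led ones (purple), low-ribosomal class left and high-ribosomal class right. The interleukin-17 list lies at −0.79, −0.22 and −1.87 in the low class, and in the high class the orange points rest on 9 Tcrg-V4-led barcodes.

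Inside the family-led barcodes, TMREhi was compared with TMRElo to ask what accompanies a high mitochondrial membrane potential in barcodes led by 1 segment family. In the low-ribosomal class 223 TMREhi members (453494 UMIs) faced 69 TMRElo members (73453 UMIs). Of 1436 genes compared, 352 passed 2-fold (24.5%), 158 higher in TMREhi (11%) and 194 lower (13.5%). The median log2 ratio over all of them was −0.21. With totals that leave out mitochondrial, ribosomal protein and receptor genes the split was 208 higher and 147 lower of 1503 genes (23.6%). The median was then −0.07. In the high-ribosomal class 198 TMREhi members (2295667 UMIs) faced 10 TMRElo members, and of 832 genes 119 passed 2-fold (14.3%), 48 higher (5.77%) and 71 lower (8.53%), with a median of 0.07. A gene level summed over barcodes cannot tell fewer positive cells from less RNA per cell, so the number of barcodes is given beside it.

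Gzma was many times higher in TMREhi members of both classes. Low-ribosomal TMREhi members held 765 UMIs in 105 of 223 barcodes, with at most 106 in 1 barcode, and TMRElo members held 4 UMIs in 4 of 69 barcodes. The levels were 1687 and 54.5 CPM, a ratio of 31.0 (12.0 to 114). High-ribosomal TMREhi members held 4090 UMIs in 124 of 198 barcodes and TMRElo members 3 UMIs in 2 of 10, or 1782 and 48.7 CPM (36.6, 12.5 to 177). After thinning to 1000 UMIs, Gzma was seen in 36.8% of low-ribosomal TMREhi members and in 2 of 34 TMRElo members (5.88%, 0.720 to 19.7). The latter interval includes the 17.6% of Rag1-positive barcodes of the TMREhi library, which was not tested as a background level. The other γ V barcodes of the low class showed the same direction, with 485 UMIs in 69 of 230 TMREhi barcodes and 4 UMIs in 3 of 40 TMRElo barcodes (13.9, 5.40 to 51.3). Of these others 61 in TMREhi and 0 in TMRElo were led by Tcrg-V6. Whether the ratio differs between members and others was not tested.

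Cpa3, a carboxypeptidase known from mast cells and early T cell progenitors, had 137 UMIs in 37 of 223 low-ribosomal TMREhi members and 0 in TMRElo members, at least 7.40-fold higher against 3 counts in the TMRElo set. In the high class it had 322 UMIs in 75 of 198 TMREhi members and 0 in 10 TMRElo members (at least 2.88-fold). Cd24a had 378 UMIs in 110 of 198 high-ribosomal TMREhi members, with up to 16 in a barcode, and 0 in the 10 TMRElo members (at least 3.38-fold). The TMRElo sets are so small that fewer than 10 UMIs of Blk in the low class, and of Cpa3, Cd24a and Maf in the high class, were expected there at equal levels. Blk, a Src-family kinase that interleukin-17 γδ cells need, had 54 UMIs in 37 low-ribosomal TMREhi members and 0 in TMRElo ones (at least 2.92-fold). Maf had 113 UMIs in 57 TMREhi and 5 UMIs in 5 TMRElo members of the low class (3.66, 1.52 to 11.5), and 208 against 0 UMIs in the high class (at least 1.86-fold). Cd28 had 120 UMIs in 64 TMREhi and 5 UMIs in 5 TMRElo members of the low class (3.89, 1.62 to 12.2). The interleukin-17 list as a whole had 5 genes higher and 5 lower of the 10 compared in the low class (median 0.15), with no interleukin-17 cytokine UMI in TMRElo members.

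**Figure D5:**
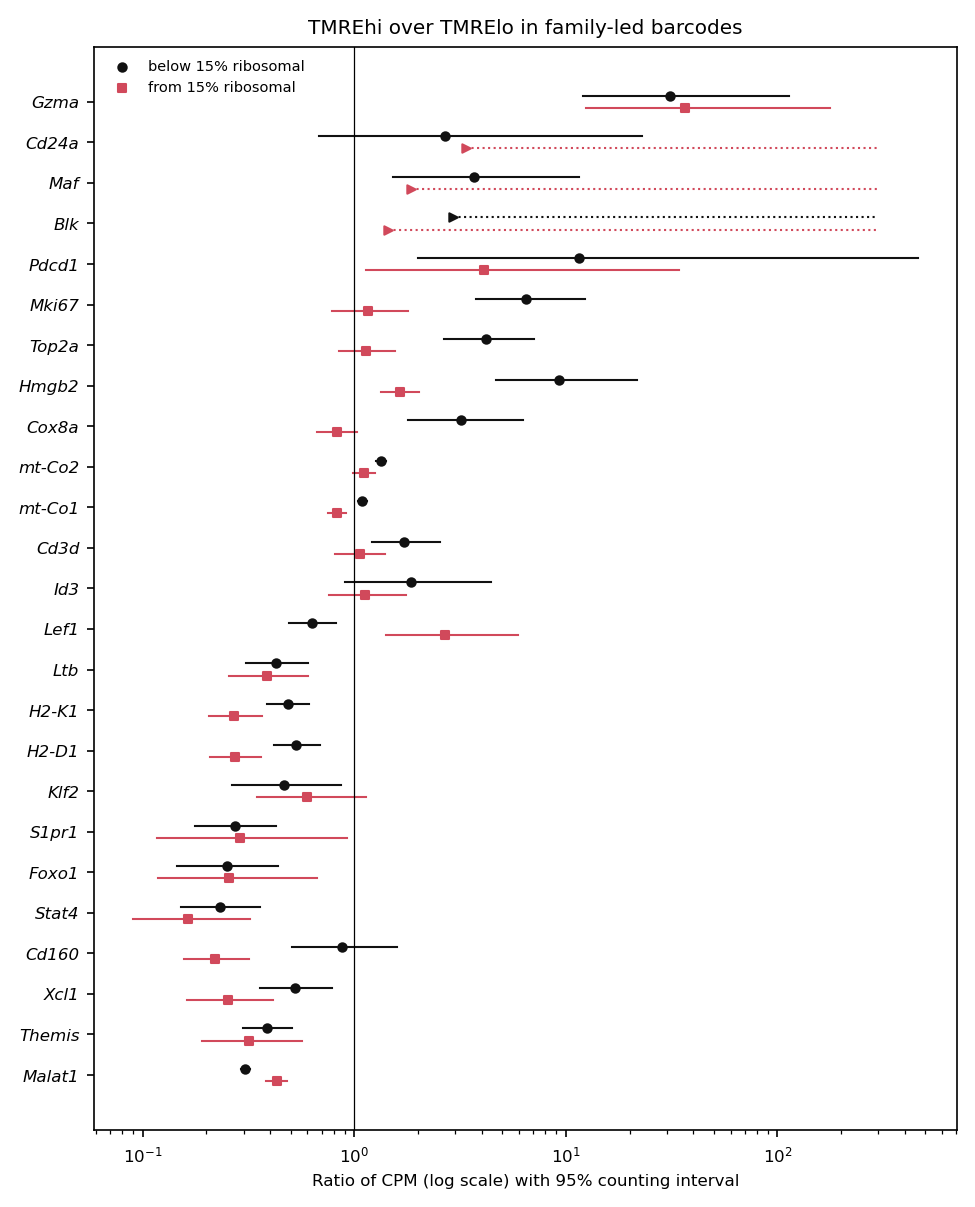
Ratio of CPM in TMREhi over TMRElo family-led barcodes for named genes, on a log axis with exact 95% intervals for counting error, in the low-ribosomal and high-ribosomal classes. Triangles with dotted lines mark a lower bound against 3 counts where the TMRElo set had none. Gzma stands at 31.0 and 36.6, while Stat4 and Malat1 lie left of 1 in both classes.

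Genes of the respiratory chain were higher in low-ribosomal TMREhi members. In this class 220 of 223 TMREhi and 58 of 69 TMRElo members held more than 10% mitochondrial UMIs, and the part of barcode quality was not tested. All 16 nuclear respiratory-chain genes compared were higher, 12 of them by more than 2-fold (median 1.08), and all 13 mitochondrially encoded mRNAs were higher (median 0.42), alongside the mitochondrial share of 19.0% in TMREhi and 14.4% in TMRElo members. Cox8a, a subunit of cytochrome c oxidase, had 520.4 CPM in TMREhi and 163 CPM in TMRElo members (3.19, 1.79 to 6.25), and Atp5b, of ATP synthase, 408 and 191 CPM (2.14, 1.24 to 3.99). Of 10 glycolysis genes compared 7 were higher and 3 lower (median 0.60), and Gapdh, a glycolytic enzyme, had 653 and 231 CPM (2.82, 1.73 to 4.91). In the high class this was weaker: 45 of 57 nuclear respiratory-chain genes were higher (5 past 2-fold, median 0.27), Cox8a had a ratio of 0.827 (0.670 to 1.03), and 3 of 12 mitochondrial mRNAs were higher and 9 lower (median −0.20), with mitochondrial shares of 3.63% and 3.83%. All 9 glycolysis genes compared there were higher (median 0.50).

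Cell cycle genes were higher in low-ribosomal TMREhi members, with 10 of 11 G2 and M phase genes (median 1.22) and 7 of 9 S phase genes (median 1.58). The S phase median was −0.10 over the 4 genes still compared, 1 of them higher, without the barcodes that held αβ thymocyte markers. Mki67 had 521 UMIs in 95 of 223 TMREhi members and 13 UMIs in 5 of 69 TMRElo members (6.49, 3.76 to 12.3), and Hmgb2, a chromatin protein of cycling cells, 460 UMIs in 135 and 8 UMIs in 7 members (9.31, 4.69 to 21.7). High-ribosomal members did not show this size: Mki67 had 471 CPM in TMREhi and 406 CPM in TMRElo members (1.16, 0.781 to 1.80) and Top2a 829 and 731 CPM (1.13, 0.844 to 1.56). The TMRElo value came from few cells, since all 45 Top2a UMIs lay in 2 of the 10 barcodes. Per barcode, G2 and M phase transcripts had a lowest, median and highest level of 393, 5305 and 29624 CPM in high-ribosomal TMREhi members, and 1459, 2677 and 23974 CPM in TMRElo members.

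On the low side of TMREhi stood genes of maturation and exit from the thymus. In the low class 5 of 21 were higher and 16 lower, 11 by more than 2-fold (median −1.03), and in the high class 1 of 11 was higher and 10 lower, 7 by more than 2-fold (median −1.08). S1pr1, the receptor that guides exit, had 130.1 CPM in TMREhi and 476 CPM in TMRElo low-ribosomal members (0.273, 0.177 to 0.427), and Klf2, the factor that drives S1pr1, 108 and 231 CPM (0.467, 0.264 to 0.865). Foxo1, which acts above Klf2, had 81.6 and 327 CPM (0.25, 0.145 to 0.436). H2-K1 had 706 CPM in TMREhi and 1457 CPM in TMRElo members of the low class (0.484, 0.388 to 0.609), and 242 and 893 CPM in the high class (0.271, 0.205 to 0.365). Outside that list Stat4, the signal transducer of interleukin-12 and part of the cytotoxic list, had 123 and 531 CPM in the low class (0.233, 0.152 to 0.360) and 34.4 and 211 CPM in the high class (0.163, 0.0901 to 0.320, under the minimum of 10 expected UMIs). Themis, needed for T cell selection and part of the immature list, had 426 and 1103 CPM (0.386, 0.296 to 0.507) in the low class. Malat1, a nuclear noncoding RNA, had 10166 and 33327 CPM in the low class (0.305, 0.290 to 0.320) and 2188 and 5099 CPM in the high class (0.429, 0.383 to 0.483). In other γ V barcodes of the low class, 22.2% of 675 genes passed 2-fold between the fractions. Of 17 maturation genes 6 were higher and 11 lower in TMREhi (median −0.84). S1pr1 had a ratio of 0.225 (0.139 to 0.372) there and H2-K1 of 1.03 (0.773 to 1.39). These others held 61 Tcrg-V6-led barcodes in TMREhi and 0 in TMRElo, so fraction and leading segment cannot be told apart in them.

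Summed levels of the interferon-γ and cytotoxic list were mostly lower in TMREhi members of the high-ribosomal class. Of 10 genes compared 2 were higher in TMREhi and 8 lower by more than 2-fold (median −1.91). Ccl5, a chemokine of cytotoxic cells, had 880 UMIs in 27 of 198 TMREhi members, and 134 UMIs in 5 of 10 TMRElo members, which held 64, 46, 14, 6 and 4 of them (383 and 2176 CPM, ratio 0.176, 0.147 to 0.213). Cd160, a receptor of innate-like T cells from the NKT-like list, was found in 105 of 198 TMREhi and 9 of 10 TMRElo members (0.22, 0.156 to 0.319), and Nkg7, a granule protein, in 124 of 198 and 10 of 10 (0.277, 0.207 to 0.376). Outside the lists Cd7, found on T and NK cells, had UMIs in 69 of 198 TMREhi members, and 1 to 61 UMIs in each of the 10 TMRElo members (0.171, 0.143 to 0.204). Ms4a4b, a membrane protein of T cells, was present in 118 of 198 TMREhi and 10 of 10 TMRElo members (0.197, 0.154 to 0.255). The per-barcode level of the list ranged from 0 to 38881 CPM in TMREhi members (median 2231) and from 1193 to 31203 CPM in the 10 TMRElo members (median 5139), so the groups overlapped widely. Xcl1 had a ratio of 0.252 (0.162 to 0.412), but 20 of the 22 TMRElo UMIs lay in 1 barcode, and it was 2.82 without barcodes that held αβ thymocyte markers. In the low class the list had 2 of 9 genes higher and 7 lower, with a median of −0.28 that lay near the −0.21 of all 1436 genes compared and was 0.28 when barcodes were weighted equally, and 28 of the 36 TMRElo Xcl1 UMIs lay in 1 barcode. NK and innate lymphoid markers summed to 332.4 CPM in TMREhi and 747.0 CPM in TMRElo high-ribosomal members, with 5 and 9 of 14 genes at 0, and to 520.4 and 163.4 CPM in the low class, with 6 and 9 at 0. Their part in these differences was not tested. Gzma, which belongs to the same list, ran against it in both classes.

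Within TMREhi family-led barcodes the high-ribosomal and low-ribosomal classes themselves differed widely in composition. Of 6281 genes compared, 835 were more than 2-fold higher in the high class (13.3%) and 2744 lower (43.7%), 57% in all. Ribosomal protein genes, which define the classes, stayed in these counts and in the totals, so part of this split follows from the class limit. The median log2 ratio over all genes compared was −0.76, with 1997 ratios over 1 and 4284 under 1. A ratio of 1 thus lies above that of the typical gene here. Gzma was nearly level at 1782 CPM in the high and 1687 CPM in the low class (1.06, 0.977 to 1.14). Nrgn was at 232 and 33.1 CPM (7.01, 4.21 to 12.6), Ccl5 at 383 and 106 CPM (3.62, 2.71 to 4.95), Id3 at 457 and 203 CPM (2.25, 1.82 to 2.82) and Cd24a at 165 and 72.8 CPM (2.26, 1.58 to 3.34). On the other side Il7r was at 124 CPM in the high and 551 CPM in the low class (0.224, 0.189 to 0.267), Cd163l1 at 118 and 604 CPM (0.195, 0.165 to 0.232) and 5830411N06Rik at 133 and 882 CPM (0.151, 0.13 to 0.176).

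In the TMRElo library, low-ribosomal family-led barcodes (69) could be set against 40 other γ V barcodes. Of these others 22 were led by Tcrg-V4, 13 were tied with the family and 0 were led by Tcrg-V6. Their make-up thus differs from that of the TMREhi others, and the share below is not directly comparable with the TMREhi share. Of 745 genes compared 21 were more than 2-fold higher in the members and 28 lower, 6.58% in all. Trgv2, a segment of the rule, was among the higher genes (2.92, 1.90 to 4.64).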

How the data were processed

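The deposited matrices hold raw UMI counts per gene and barcode for 2 libraries made by the authors with a 5′ droplet assay. The mm10 build and Cell Ranger 3.0 are taken from the submitters' processing notes, while release 3.0.2 stands in the file headers. Sources used here do not name the annotation release or the settings for calling cells. Whole-number counts were deposited for 31053 gene identifiers, and identifiers with the same symbol were summed (31017 symbols). The TMREhi library held 4350485 UMIs in 1202 barcodes and the TMRElo library 245048 in 196. No barcode was filtered out.

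The members and gene lists (24 lists, 515 of 521 genes in the files) were chosen with earlier results of these data known. UMIs were summed per set of barcodes and scaled to CPM. The ratio of 2 sets has an exact conditional (Clopper-Pearson) interval at 95%, and shares have exact binomial intervals. Genes with at least 10 UMIs expected in the shallower set were compared, and those past 2-fold counted. Log2 ratios used 1 CPM added to both values. A level against 0 UMIs was taken against a floor of 3 counts in that set (6.62 and 1.31 CPM in the low and high class of TMREhi members, 40.8 and 48.7 CPM in TMRElo ones). For shares of barcodes with a gene, each barcode was thinned to 1000 UMIs and shallower barcodes were left out.

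Named genes were the 10 largest and 10 smallest ratios per comparison whose interval excludes 1, outside mitochondrial, ribosomal protein, receptor, immunoglobulin, globin and predicted genes. To these were added up to 4 genes per list with the highest mean CPM, 30 genes chosen by name, and receptor segments. Il17a and Ifng fall outside this rule and were named after their values were seen. Some genes that the rule covers are not reported here. Scrublet called 4 of 1202 TMREhi and 8 of 196 TMRElo barcodes as doublets, among them 3 and 4 members. These stayed in, with their removal as an alternative. Sequences and coordinates are from GENCODE vM21 on GRCm38. Alternatives covered barcode filters, the class limit, a clearer lead, αβ markers, doublets, deep barcodes, scaling, count filters and Trgv2 alone. Others, added after the data were seen, covered ties, Tcrg-V6-led barcodes, myeloid UMIs, the 3 deepest barcodes, and TMREhi members with 5 or fewer family UMIs. The intervals were tested on simulated data with independent counts per gene. Clustering of UMIs in single barcodes was not simulated, so the test covers counting error only. Tools were scanpy 1.11.5, pandas 2.3.3, scipy 1.17.1, matplotlib 3.10.9 and numpy 2.4.6 under Python 3.11.15.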

Additional observations from a re-analysis of the deposited data

Results flagged for a closer look

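Among listed genes compared in both ribosomal-share classes, a few had intervals on opposite sides of 1 in the low and the high class. The difference between the classes was not tested, and the intervals cover counting error only.

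For TMREhi over TMRElo among family-led barcodes this held for 6 of 92 genes. Cd3g, a chain of the receptor complex, had ratios of 1.46 in the low and 0.583 in the high class, and Ly6e, a surface protein of thymocytes, 1.45 and 0.763. Lef1, a factor of early T cells, ran the other way with 0.630 and 2.70. The mitochondrially encoded mt-Atp6 had 1.14 and 0.845, mt-Co1 1.09 and 0.829, and mt-Nd4l 1.35 and 0.805.

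For family-led over other γ V barcodes of the TMREhi library this held for 6 of 335 genes. Gzma had ratios of 1.33 in the low and 0.762 in the high class. The remaining genes were mitochondrially encoded: mt-Atp6 with 1.04 and 0.825, mt-Co2 with 1.08 and 0.934, mt-Co3 with 1.09 and 0.861, mt-Nd3 with 1.10 and 0.818, and mt-Nd4l with 1.07 and 0.840. Mitochondrial transcripts took 19.0% of UMIs in low-ribosomal members and 18.4% in the low-ribosomal others, and 3.63% and 4.16% in the high class.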

How the results depend on the processing

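No paired analysis was possible because each group has 1 library, and for the same reason no replicate could be left out. The family-led share of 57.9% in TMREhi was 71.5% among barcodes with at least 500 genes and at most 10% mitochondrial UMIs, 41.7% with a lead of at least 2 family UMIs and 2 times each other segment, and 44.6% with Trgv2 alone, and the TMRElo share of 64.2% was 38.2% and 50.4% under the last pair of settings. The 500-gene and 10% filter left 3 members and 7 others in the low class. Of 57 genes still compared 10 passed 2-fold (17.5%, against 6.19% unfiltered), with Maf at 1.60. For TMREhi over TMRElo in the low class it left 3 and 9 members. Of 43 genes still compared there 14 passed 2-fold (32.6%, against 24.5% unfiltered). A minimum of 20 expected UMIs gave 124 and 193 genes past 2-fold for members over others in the low and high class (3.16% and 5.88%). For TMREhi over TMRElo it gave 122 and 45 (23.9% and 11.8%). No minimum gave 3683, 4603, 6691 and 8221 in the same order (29.3%, 35.6%, 55.7% and 64.8%). Without Tcrg-V6-led barcodes the counts for members over others were 261 of 5447 genes (4.79%) in the low and 128 of 3773 (3.39%) in the high class. Cd24a was then at 0.988 in the high class. Equal weight per barcode gave 771 of 5680 genes (13.6%) for members over others in the high class (reported 8.34%), with Gzma at 1.18. Trgv2 alone put Gzma at 1.17. The clearer lead gave 203 of 838 genes (24.2%) for TMREhi over TMRElo in the low class (reported 24.5%). Leaving out the 3 deepest barcodes of each set gave 61 of 394 (15.5%) in the high class (reported 14.3%). For TMREhi over TMRElo, Xcl1 turned to 2.62 in the low and 2.82 in the high class without barcodes with αβ markers, to 2.29 without the deepest barcode, to 1.29 with equal weight and to 1.46 without the 3 deepest in the high class. In the low class the S phase median turned to -0.10 without barcodes with αβ markers, and the interferon-γ and cytotoxic median to 0.28 with equal weight and 0.27 with no minimum. Of the remaining gene ratios 284 stayed within the counting interval and 32 moved beyond it. Of the remaining list medians, judged by a fixed log2 distance and not by an interval, 373 stayed close to the reported value and 62 moved further. A turn was counted only for genes whose reported interval excluded 1, and for list medians of a minimum size in both settings. Smaller values may therefore also have changed side. Depth limits the TMRElo side most: 3 UMIs amounted to 40.8 CPM over low-ribosomal and 48.7 CPM over high-ribosomal TMRElo members, so differences of genes below these levels were not detectable there.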

Other observations

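Receptor chains were about evenly split. Of the T cell receptor and CD3 chains, 6 of 12 were higher and 6 lower in low-ribosomal family-led barcodes than in other γ V barcodes of TMREhi (median log2 0.007), and 5 of 10 were higher and 5 lower in TMREhi than in TMRElo members of each class (medians 0.10 and 0.003). Of genes induced by receptor signals, 11 of 18 were higher and 7 lower in low-ribosomal members than in the others (median 0.16), and 9 of 16 were higher and 7 lower in the high class (median 0.09). Over all genes of these comparisons 3205 of 6385 had a ratio over 1 in the low class (median 0.002) and 2942 of 5418 in the high class (median 0.05). Of immediate early and heat shock genes, which respond to handling, 4 of 6 were higher in TMREhi than in TMRElo members of the low class (median 0.58) and 6 of 7 in the high class (median 0.54).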
